A study of Mus musculus with 16 samples.

Results

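The 10 genes described here shape membranes in skeletal muscle. They are the dynamins *Dnm1*, *Dnm2*, *Dnm3* and *Dnm1l*, the amphiphysins *Bin1* and *Amph*, the caveola genes *Cav1*, *Cav3* and *Cavin4*, and the kinase gene *Speg*. They were chosen by name, not by their values, from the 41388 genes of the count table; 9 were listed under these symbols and *Cavin4* was listed under its older name *Murc*. Quadriceps muscle of C57BL/6 mice was sequenced at postnatal day 36 in 4 groups of 4 mice: wild type on normal chow (WT), wild type on tamoxifen chow (WT + TAM), mice without functional *Mtm1* on normal chow (*Mtm1* KO), and the same mutants on tamoxifen chow (*Mtm1* KO + TAM). The mutants lack exon 4 of *Mtm1*, and tamoxifen was given in the diet at 40 mg/kg from day 21. Each library was made from bulk muscle of 1 mouse. The study used 14 of the 16 libraries, namely 7 of each genotype, with 3 untreated and 4 treated mice in each, and the same 14 were compared here.

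Myotubularin, the product of *Mtm1*, is a phosphatase that removes phosphate from phosphoinositides on endosomal membranes, and its loss causes X-linked myotubular myopathy, a centronuclear myopathy. Classical dynamins are large GTPases that wind around the neck of a budding vesicle and cut it off, amphiphysins are BAR-domain proteins that sense or impose membrane curvature and bind dynamins, and caveolins with cavins form the small flask-shaped pits of the plasma membrane. In muscle these proteins meet at the T-tubule, the inward fold of the surface membrane that carries the action potential to the sarcoplasmic reticulum at the triad. Mutations of human *DNM2*, *BIN1* and *SPEG* cause other forms of centronuclear myopathy, which is why the genes are read together.

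The libraries held between 25116179 and 29847222 counts. Counts of *Mtm1* ran from 53 to 97 in the 8 libraries labelled *Mtm1* KO and from 282 to 459 in 7 of those labelled WT, while the library labelled WT replicate 1 held 74. That library and *Mtm1* KO replicate 12 are the 2 that the study did not use, and they stood apart for several genes described below. In the mutants compared, 15.01% to 19.04% of each library came from its 10 highest genes, beside 23.6% to 27.6% in the WT mice compared. Scaling by library size alone moved the median log2 difference of all tested genes between mutant and WT from 0.00 to 0.31 with treatment as a covariate, from 0.02 to 0.33 without tamoxifen and from -0.01 to 0.27 on tamoxifen. Levels of single genes compared across groups below are CPM, counts scaled to a common library total, after trimmed-mean (TMM) normalization. Levels compared between genes are the deposited RPKM values, which divide by gene length. Marker lists are given as summed RPKM, which is scaled by library size alone and so keeps the shift between genotypes given above. Summed RPKM of 8 muscle fiber markers was 36310 to 50960 in the mutants and 55320 to 63200 in WT. Summed RPKM of 6 satellite and regenerating muscle markers was 73.1 to 133.1 in the mutants and 23.6 to 39.7 in WT, and that of 5 leukocyte markers was 19.5 to 49.1 and 6.48 to 16.5. The 6 satellite and regenerating markers did not move together. With treatment as a covariate 4 had higher and 2 lower means in mutants, at log2 differences from -1.32 to 3.57. The library labelled WT replicate 1, whose *Mtm1* count lay in the mutant range, lay outside the mutant ranges in these other values. Its 10 highest genes held 26.86%, and its summed RPKM was 67950 for fiber, 24.55 for satellite and regenerating and 8.57 for leukocyte markers. What sets this library apart was not tested. In such bulk samples, fewer cells of a type and less RNA per cell cannot be told apart, and the part of these markers in the differences below was not tested.

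Each of the 3 classical dynamin genes carries a miR-199 gene inside its body on the opposite strand. *Dnm1* (2:32308471-32353338, minus strand, GRCm38) holds *Mir199b*, *Dnm2* (9:21424908-21507759, plus strand) holds *Mir199a-1*, and *Dnm3* (1:161982453-162478034, minus strand) holds *Mir199a-2* together with *Mir214* within the antisense transcript *Dnm3os*. The mature sequences, taken from RefSeq on GRCm38.p6, are shown because they tie the 3 loci together; capitals mark the seed, bases 2 to 8.
miR-199b-3p, in *Dnm1*: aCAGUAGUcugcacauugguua
miR-199a-3p, in *Dnm2* and *Dnm3*: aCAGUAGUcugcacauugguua
miR-199a-5p, in *Dnm2* and *Dnm3*: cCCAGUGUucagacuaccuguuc
miR-214-3p, in *Dnm3*: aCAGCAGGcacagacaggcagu
miR-214-5p, in *Dnm3*: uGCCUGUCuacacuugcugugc
The 3p arms from *Dnm1*, *Dnm2* and *Dnm3* are the same sequence and share the seed CAGUAGU. Mature miRNAs are too short for these libraries and were not measured, and the miRNA genes themselves drew at most 7 counts in any library.

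The promoters of the gene that fell in every genotype comparison, *Speg*, and of *Dnm2* are shown next, as the 250 bases before the first annotated start in RefSeq on GRCm38.p6. In the *Speg* window (chr1:75375047-75375296, plus strand) capitals mark an E-box, CANNTG, whose first base lies 123 bases before the start, and a match to the MEF2 consensus, the site of a muscle transcription factor family, 51 bases before it. In the *Dnm2* window (chr9:21424658-21424907, plus strand) capitals mark the E-box 53 bases before the start.
*Speg*: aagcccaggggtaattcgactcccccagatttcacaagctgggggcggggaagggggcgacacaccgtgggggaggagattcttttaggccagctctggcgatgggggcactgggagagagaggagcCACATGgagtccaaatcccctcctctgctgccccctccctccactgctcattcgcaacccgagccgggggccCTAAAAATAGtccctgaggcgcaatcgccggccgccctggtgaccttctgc
*Dnm2*: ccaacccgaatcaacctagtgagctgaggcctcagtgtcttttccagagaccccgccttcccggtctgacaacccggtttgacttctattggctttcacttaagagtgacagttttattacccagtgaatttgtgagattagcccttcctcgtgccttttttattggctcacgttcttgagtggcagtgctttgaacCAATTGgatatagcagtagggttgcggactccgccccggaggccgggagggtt
Both strands were searched. An E-box was found in 66.2% of all 32851 promoter windows of this length and a MEF2 match in 2.92%, so the first motif is common and the second is not. Of the 14 windows of the 9 genes other than *Bin1*, 12 held an E-box and only the *Speg* window above held a MEF2 match. No window of these genes held an estrogen response element or a match to the SRF consensus, found in 0.0639% and 1.47% of all windows. A match is a stretch of letters and says nothing of binding.

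In WT muscle the 10 genes spanned more than 3 orders of magnitude per gene length. *Bin1*, which builds the T-tubule membrane, was the most abundant, at 331.6, 400.8 and 325.8 RPKM in the 3 libraries. The muscle caveolin *Cav3* (71.8 ± 6.67 RPKM, SD, n = 3), the muscle cavin *Cavin4* (67.6 ± 7.75) and the broadly expressed *Cav1* (56.4 ± 12.7) came next, and neighbours among these 3 overlapped between libraries. *Speg*, a triad kinase of the myosin light chain kinase family, stood at 18.6 ± 1.81 RPKM and *Dnm1l*, which cuts mitochondria and peroxisomes, at 16.01 ± 0.708, again with overlap. *Dnm2*, the ubiquitous classical dynamin, stood at 7.62 ± 0.592 RPKM, below every *Dnm1l* value and above every *Dnm1* value. The neuronal dynamin *Dnm1* stood at 2.36 ± 0.420 RPKM, and *Amph*, best known from synapses, at 0.311 ± 0.177, overlapping the 0.240 ± 0.0912 of *Dnm3*, also known mainly from brain. For *Bin1* the length behind RPKM was 2451 bases and the merged exons of GENCODE vM21 span 4117; with the latter its WT mean was 210.0 RPKM, still the highest of the 10.

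**Figure D1:**
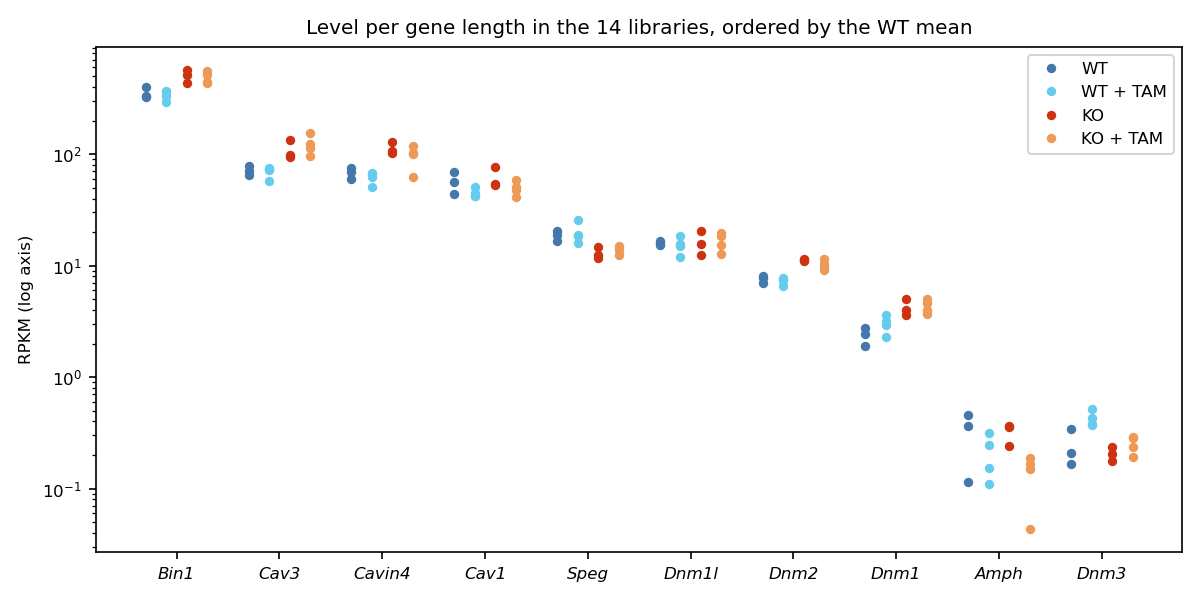
RPKM (log axis) of the 10 genes in each of the 14 libraries, 1 point per library, coloured by group and ordered from left to right by the WT mean. *Bin1* lies highest in every group, *Dnm2* lies between *Dnm1l* and *Dnm1*, and the WT points of *Amph* and *Dnm3* overlap at the bottom.

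Among the 3 classical dynamins, *Dnm2* held 72.4% to 77.0% of the summed RPKM in WT, 64.9% to 73.6% in WT + TAM, 68.5% to 74.2% in *Mtm1* KO and 65.0% to 73.2% in *Mtm1* KO + TAM. These shares do not depend on how libraries were scaled, and their ranges overlapped. *Dnm3* held at most 4.88% of the sum in any library.

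The first question was how loss of *Mtm1* altered these genes. Without tamoxifen, 1 of the 10 passed the edgeR quasi-likelihood test at a Benjamini-Hochberg adjusted p of 0.01, *Speg*, which fell. Of all 14740 genes tested, 3.6% passed and 1.69% fell. On tamoxifen, 2 of the 10 passed, *Speg* and *Dnm3*, and both fell, against 6.72% of 14563 genes passing and 3.3% falling. These comparisons rest on separate mice. With all 14 libraries and treatment as a covariate, *Speg* and *Dnm3* fell and the other 8 did not pass, against 20.2% of 15556 genes passing and 10.7% falling. In this last fit the 2 of 10 that passed were the same share as among all genes. No direction held for the whole group: 5 of the 10 had a higher mean and 5 a lower mean in mutants, with a median log2 difference of 0.02 beside 0.00 for all genes.

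**Figure D2:**
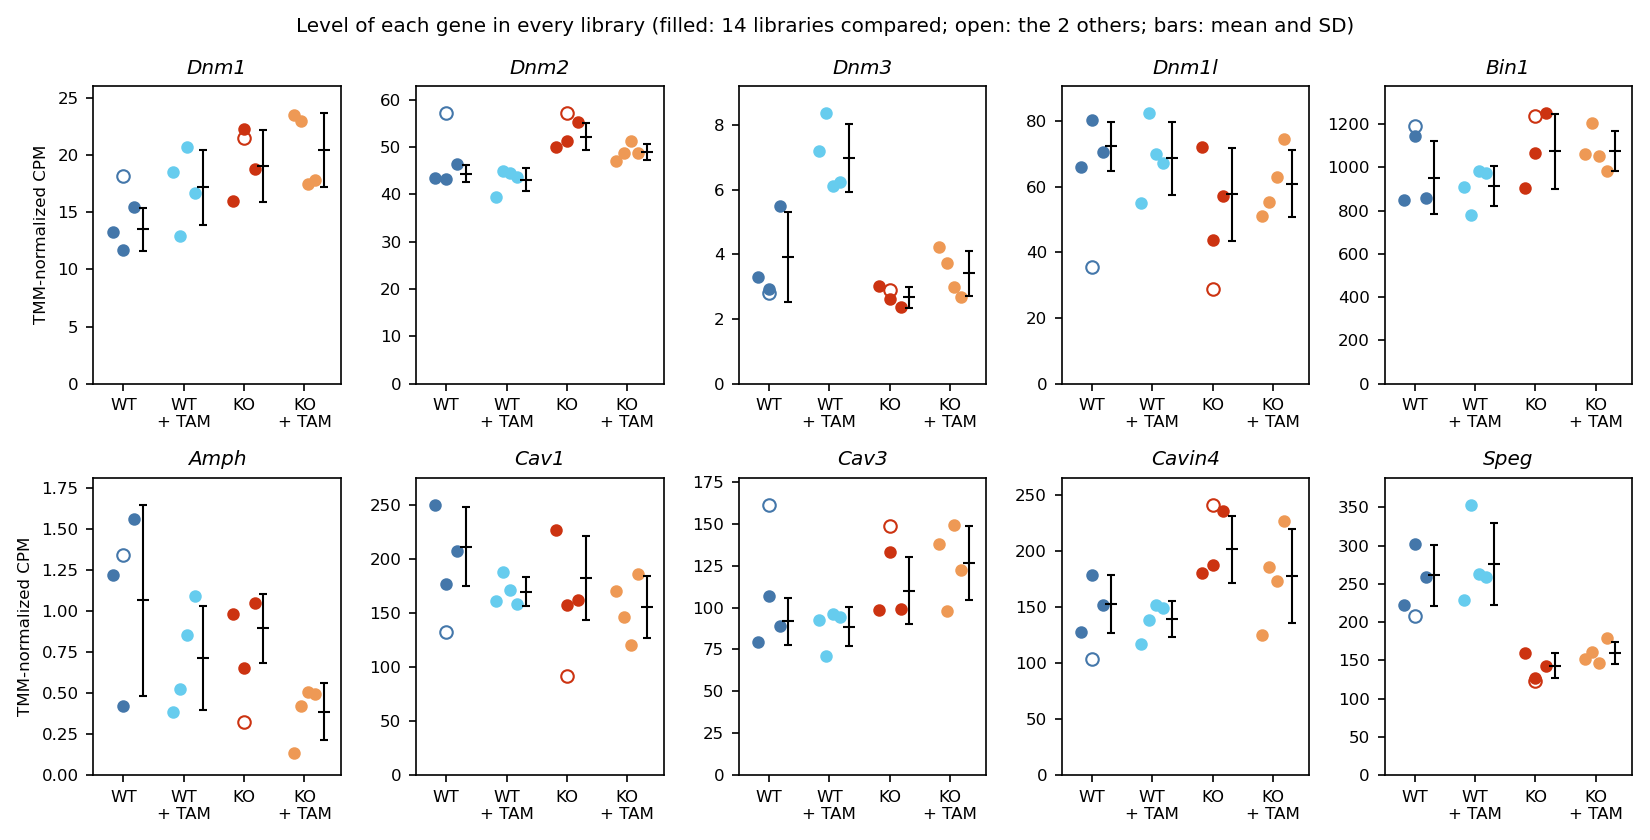
Normalized CPM of each gene in every library, by group, with a linear axis from 0; filled points are the 14 libraries compared, open points are the library labelled WT replicate 1 and *Mtm1* KO replicate 12, and bars give mean and SD of the filled points. *Speg* lies lower in all mutant libraries than in all WT libraries compared, and *Dnm2* slightly higher.

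*Speg* encodes a kinase anchored at the triad. Its normalized CPM was 222.9, 301.9 and 258.5 in WT and 228.5, 353.8, 262.9 and 258.9 in WT + TAM. It was 159.5, 127.3 and 142.4 in *Mtm1* KO and 152.4, 161.3, 146.5 and 179.0 in *Mtm1* KO + TAM. Every mutant library lay below every WT library compared, on tamoxifen or not, as for 5.68% of all genes. *Speg* fell by 0.84 on the log2 scale without tamoxifen (SE 0.153, edgeR adjusted p = 0.00998) and by 0.79 on tamoxifen (SE 0.141, edgeR adjusted p = 0.00398). Over all 14 libraries the fold was 0.566 (95% interval 0.486 to 0.658, edgeR adjusted p = 2.33e-05). Being called lower in both separate sets was true of 1.11% of 14278 genes. *Speg* was also the 1 gene of the 10 called between *Mtm1* KO + TAM and untreated WT, where it fell by 0.71 on the log2 scale (SE 0.133, edgeR adjusted p = 0.00507), beside 7.7% of 14942 genes called; this comparison shares its libraries with those above.

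The *Speg* call in each set alone sat close to the threshold, and the fit over all 14 libraries did not. Leaving out any 1 of the 6 libraries without tamoxifen ended the call there, with edgeR adjusted p from 0.0142 to 0.0368 and log2 differences from -0.95 to -0.73, and so did adding the 2 libraries the study did not use (edgeR adjusted p = 0.0246). Scaling by library size alone also ended it in both separate sets, at log2 differences of -0.52 (edgeR adjusted p = 0.0227) and -0.51 (edgeR adjusted p = 0.02245), and so did limma on log2 RPKM. On tamoxifen it was lost without WT + TAM replicate 7 (edgeR adjusted p = 0.0106) or 8 (0.0102) and without *Mtm1* KO + TAM replicate 13 (0.0138), 14 (0.0132) or 15 (0.0180). Over the 14 libraries it was kept in all 14 such fits, and also under library size alone, where *Speg* still fell by 0.52 on the log2 scale (SE 0.1005, edgeR adjusted p = 5.59e-04).

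A ratio of 2 genes within a library carries no scaling factor. *Speg* RPKM as a percent of *Dnm2* RPKM ran from 214.8 to 291.6 in WT and from 242.1 to 329.1 in WT + TAM. It ran from 103.8 to 133.4 in *Mtm1* KO and from 119.5 to 153.7 in *Mtm1* KO + TAM, so the genotypes did not overlap. The value was 151.7 in the library labelled WT replicate 1, inside the mutant range, and 90.3 in *Mtm1* KO replicate 12. Against *Bin1* RPKM the percentages were 4.84 to 8.71 over the 7 WT libraries and 2.19 to 3.499 over the 7 mutant ones.

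*Dnm2*, the dynamin of vesicle scission that every cell uses, differed little. Its normalized CPM was 43.4, 43.3 and 46.5 in WT and 39.5, 45.0, 44.5 and 43.7 in WT + TAM. It was 50.02, 51.3 and 55.3 in *Mtm1* KO and 47.1, 48.7, 51.3 and 48.7 in *Mtm1* KO + TAM. All 7 mutant libraries lay above all 7 WT libraries; of all genes, 5.03% were separated in this direction. The mutant mean was 1.15 times that of WT with treatment as a covariate (95% interval 1.05 to 1.26, log2 difference 0.21, SE 0.0620), and it missed the 0.01 threshold (edgeR adjusted p = 0.0178). In the separate sets the log2 differences were 0.26 (edgeR adjusted p = 0.162) and 0.185 (edgeR adjusted p = 0.199).

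The *Dnm2* value depended on scaling and on the libraries taken. By library size alone the log2 difference was 0.51, of which 0.31 was the shift of the median gene, and it passed (edgeR adjusted p = 5.17e-05). DESeq2 on the same libraries gave 0.21 and an adjusted p of 0.00285. With all 16 libraries it was 0.175 (edgeR adjusted p = 0.108), and the library labelled WT replicate 1 had 57.2 normalized CPM, above all others. *Dnm2* RPKM as a percent of *Bin1* RPKM was 2.19 ± 0.400 in WT (SD, n = 3) and 2.27 ± 0.262 in *Mtm1* KO (n = 3), within the spread. *Bin1* itself had a log2 difference of 0.21 with treatment as a covariate, as *Dnm2* had, so this ratio cannot show whether *Dnm2* differed. In GENCODE vM21, 3.88% of *Dnm2* exon bases overlap the opposite-strand gene *Tmed1*, whose own log2 difference was -0.09 (SE 0.0737, edgeR adjusted p = 0.390).

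*Dnm3* was the other gene that fell, from a low level. Its counts ran from 69 to 208 in the 7 WT libraries and from 74 to 127 in the 7 mutant ones. Normalized CPM was 3.29, 2.92 and 5.50 in WT and 7.19, 8.37, 6.10 and 6.23 in WT + TAM. It was 3.01, 2.62 and 2.36 in *Mtm1* KO and 4.23, 3.73, 2.98 and 2.69 in *Mtm1* KO + TAM. The groups on tamoxifen did not overlap, and those without it did, with WT replicate 3 below *Mtm1* KO replicate 9.

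On tamoxifen *Dnm3* fell by 1.03 on the log2 scale (SE 0.197, edgeR adjusted p = 0.00533). Leaving out 1 library there gave edgeR adjusted p from 0.00687 to 0.0222, and the call was kept only without *Mtm1* KO + TAM replicate 13. It was also lost by library size alone (-0.76, edgeR adjusted p = 0.0149). Without tamoxifen the log2 difference was -0.53 (SE 0.295, edgeR adjusted p = 0.265), or -0.20 without WT replicate 4. Over all 14 libraries *Dnm3* fell by 0.83 (SE 0.172, edgeR adjusted p = 0.00150), kept in all 14 fits that left out 1 library, and fell short by library size alone (-0.53, edgeR adjusted p = 0.0217). The 2 genotype differences of *Dnm3* were not shown to differ: the interaction was -0.48 (SE 0.336, edgeR adjusted p = 0.9998).

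The antisense gene *Dnm3os*, which lies in the body of *Dnm3* and hosts *Mir199a-2* and *Mir214*, moved the other way. Its normalized CPM was 0.546 to 1.48 in WT, 1.13 to 2.78 in WT + TAM, 2.65 to 4.72 in *Mtm1* KO and 2.61 to 4.33 in *Mtm1* KO + TAM, on counts of 14 to 144 in all. It rose by 1.22 on the log2 scale in mutants with treatment as a covariate (SE 0.275, edgeR adjusted p = 0.00281), and in the separate sets the values were 1.84 (edgeR adjusted p = 0.0218) and 0.81 (edgeR adjusted p = 0.0867). *Dnm3os* shares no exon bases with *Dnm3* in GENCODE vM21. The strand setting of the counting is not given in the sources used here, so reads of *Dnm3* introns and of *Dnm3os* cannot be told apart.

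*Dnm1* had normalized CPM of 13.3, 11.7 and 15.5 in WT and 16.01, 22.3 and 18.8 in *Mtm1* KO. On tamoxifen it had 18.5, 12.95, 20.7 and 16.7 in WT + TAM and 23.5, 23.0, 17.5 and 17.9 in the mutants, with overlap. Its log2 difference with treatment as a covariate was 0.35 (SE 0.122, edgeR adjusted p = 0.0339). *Dnm1l*, the mitochondrial dynamin, ranged from 55.1 to 82.4 in the 7 WT libraries and from 43.8 to 74.4 in the 7 mutant ones; its log2 difference of -0.24 (SE 0.121, edgeR adjusted p = 0.142) became 0.07 by library size alone. The library labelled WT replicate 1 and *Mtm1* KO replicate 12 had 35.5 and 28.9 normalized CPM of *Dnm1l*, below all 14 libraries compared.

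*Bin1* had normalized CPM of 851, 1147 and 858.6 in WT and 902.3, 1067 and 1251 in *Mtm1* KO, with overlap. It had 908.3, 781.7, 981.6 and 975 in WT + TAM and 1063, 1205, 1053 and 983.9 in *Mtm1* KO + TAM, just separated. Its log2 difference with treatment as a covariate was 0.21 (95% interval 0.00 to 0.42, edgeR adjusted p = 0.112). Counts of *Amph* were 4 to 40, too few for a narrow interval, and its log2 difference was -0.58 (95% interval -1.35 to 0.18, edgeR adjusted p = 0.230).

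The muscle caveola genes had higher means in mutants. *Cav3*, the caveolin of muscle fibers, had normalized CPM of 79.5, 106.7 and 89.0 in WT and 98.4, 133 and 98.9 in *Mtm1* KO. On tamoxifen it had 92.5, 71.3, 96.3 and 94.3 in WT and 137.7, 97.9, 149.1 and 122.3 in the mutants, with no overlap. Its log2 difference with treatment as a covariate was 0.41 (95% interval 0.16 to 0.66, edgeR adjusted p = 0.0129), just outside the threshold; it passed by library size alone, in DESeq2 and without a filter on low counts. With all 16 libraries it was 0.32 (edgeR adjusted p = 0.128), and the library labelled WT replicate 1 had 161.5 normalized CPM, above all others.

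*Cavin4*, the muscle cavin that coats caveolae, had normalized CPM of 127.6, 179.1 and 151.8 in WT and 180.9, 187.8 and 236.2 in *Mtm1* KO. It had 116.7 to 152.3 in WT + TAM and 124.9 to 227.0 in *Mtm1* KO + TAM, where replicate 13 lay within the WT range. Its log2 difference was 0.37 (95% interval 0.12 to 0.63, edgeR adjusted p = 0.0267). *Cav1*, abundant in endothelial and fat cells, did not follow: its log2 difference was -0.16 (SE 0.114, edgeR adjusted p = 0.294) and turned to 0.13 by library size alone. It was 91.8 normalized CPM in *Mtm1* KO replicate 12, the lowest of the 16 libraries.

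At a threshold of 0.05, 6 of the 10 passed with treatment as a covariate: *Speg* and *Dnm3* lower, and *Dnm1*, *Dnm2*, *Cav3* and *Cavin4* higher. Of all genes, 33.8% passed at that threshold. Without tamoxifen 3 of the 10 were separated upward and 1 downward, beside 17.4% and 19% of all genes. On tamoxifen 3 were separated upward and 2 downward, beside 10.9% and 11.6%.

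**Figure D3:**
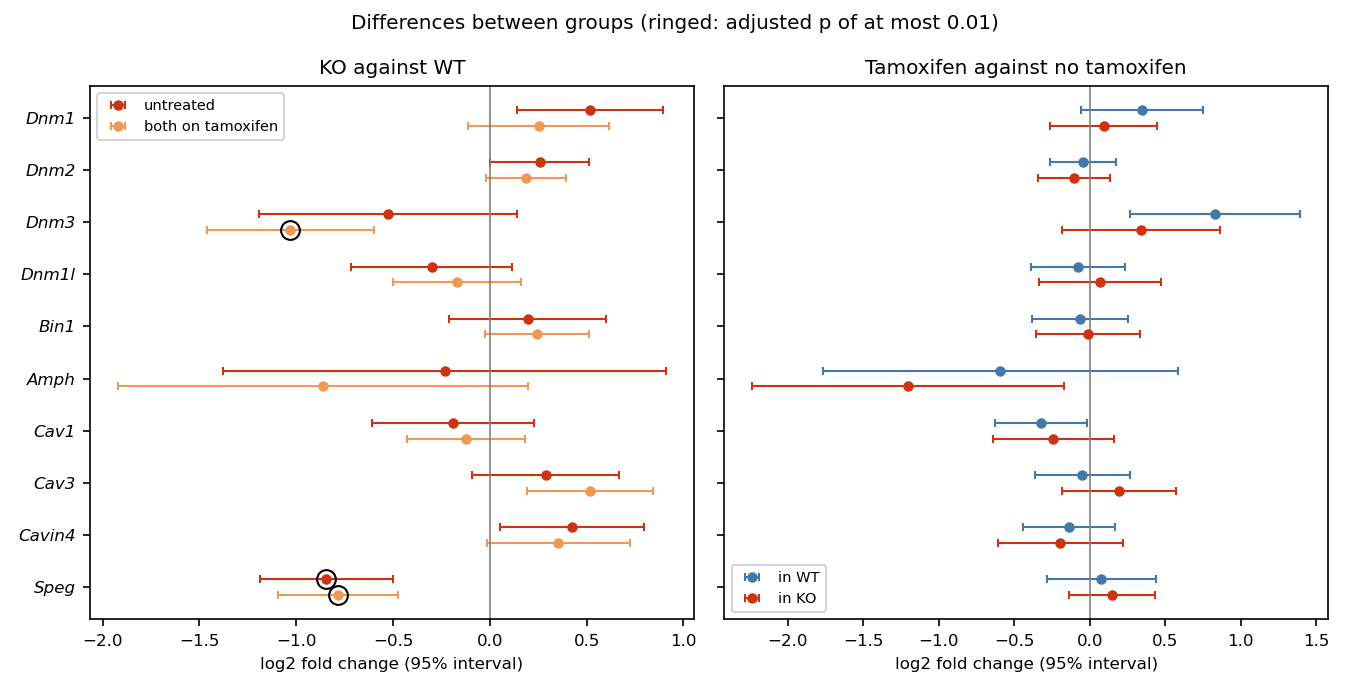
Log2 differences with 95% intervals for the 10 genes; left, mutant against WT without tamoxifen and with it, and right, tamoxifen against none in WT and in mutants. Rings mark an edgeR adjusted p of at most 0.01, which only *Speg* in both sets and *Dnm3* on tamoxifen reach.

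The second question was whether tamoxifen altered the RNA of these genes. In *Mtm1* KO mice none of the 10 passed in edgeR, beside 0% of 15062 genes. At an unadjusted p of 0.05, 1 of the 10 and 7.55% of all genes were past. DESeq2 called none of the 10 either, beside 68 of the 14970 genes to which it gave an adjusted p. In WT mice none of the 10 passed in edgeR, beside 0.131% of 14544 genes, and 2 of the 10 and 10.7% of all genes had an unadjusted p of at most 0.05. DESeq2 again called none of the 10, beside 208 of 17118 genes. With genotype as a covariate none of the 10 passed, beside 0.476% of 15556 genes, and 3 had an unadjusted p of at most 0.05 (*Dnm3*, *Amph* and *Cav1*), beside 14.1% of all genes. No gene of the 15556 passed in edgeR for the interaction of genotype and tamoxifen. At an unadjusted p of 0.05, 0 of the 10 and 4.27% of all genes were past. After adjustment DESeq2 called none of the 10, beside 12 of 14284 genes.

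For *Dnm2* the log2 difference between tamoxifen and none was -0.11 in *Mtm1* KO (95% interval -0.34 to 0.13), -0.05 in WT (-0.27 to 0.18) and -0.07 with genotype as a covariate (-0.20 to 0.06). The last interval corresponds to 0.870 to 1.05 times the untreated level, so a fall of *Dnm2* RNA to below 0.870 times lies outside the interval. *Bin1* gave -0.03 (-0.24 to 0.18) and *Speg* 0.12 (-0.10 to 0.34). For *Speg* in mutants the tamoxifen mean was 159.8 ± 14.1 normalized CPM (SD, n = 4) beside 143.1 ± 16.1 (n = 3), within the spread, and both lay below the WT mean of 261.1 ± 39.6 (n = 3).

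*Dnm3* had the lowest p of the 10 with tamoxifen, at a log2 difference of 0.60 with genotype as a covariate (SE 0.175, edgeR adjusted p = 0.105). The 4 WT + TAM libraries all lay above the 3 WT libraries, at 6.10 to 8.37 against 2.92 to 5.50 normalized CPM, a separation that 5.14% of all genes showed. *Amph* stood at 0.388 ± 0.174 normalized CPM in *Mtm1* KO + TAM (SD, n = 4) and 0.896 ± 0.212 in *Mtm1* KO (n = 3). The groups did not overlap, as for 3.71% of all genes in this direction, and the log2 difference was -1.205 (edgeR adjusted p = 0.552). These counts were 4, 14, 18 and 15 against 30, 20 and 33. *Cav1* gave -0.27 with genotype as a covariate (SE 0.115, edgeR adjusted p = 0.290). All 6 endothelial markers also had lower means on tamoxifen, with a median log2 difference of -0.34. Their summed RPKM was 52.2 to 82.6 in WT, 42.8 to 55.1 in WT + TAM, 55.9 to 82.8 in *Mtm1* KO and 43.2 to 61.5 in *Mtm1* KO + TAM. After TMM scaling, 1 of these 6 markers fell in mutants with treatment as a covariate, beside 10.7% of all genes. The median log2 difference of the 6 between genotypes was -0.27. The part of these markers in the *Cav1* value was not tested. Summed RPKM of 6 fat cell markers spread widely, from 67.2 to 921.1 in WT, 319 to 1407 in WT + TAM, 565.4 to 950.2 in *Mtm1* KO and 553.7 to 695.8 in *Mtm1* KO + TAM. None of the 4 smooth muscle markers (summed RPKM 99.97 to 141.7 over the 14 libraries) and none of the 5 fibroblast markers passed with tamoxifen. In mutants, with treatment as a covariate, 3 fibroblast markers rose and 2 smooth muscle markers fell, beside 9.44% and 10.7% of all genes. Of 7 nerve and Schwann cell markers, which bear on *Dnm1* and *Amph*, 6 were tested and 1 rose in mutants, with summed RPKM of 33.0 to 91.2 in WT and 55.7 to 75.9 in *Mtm1* KO.

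Of the 19 other genes of the T-tubule, the triad and centronuclear myopathy, 18 were tested. Among all genes, 1.69% fell without tamoxifen, 3.3% on tamoxifen and 10.7% with treatment as a covariate. Without tamoxifen 3 fell and none rose: *Mtm1* itself, and the junctophilins *Jph1* (log2 difference -1.02, edgeR adjusted p = 0.00729) and *Jph2* (-0.95, edgeR adjusted p = 0.00983), which tether the sarcoplasmic reticulum to the T-tubule. On tamoxifen 5 fell and none rose, among them the same 3 and *Cacna1s* (-0.72), the voltage sensor of the T-tubule. With treatment as a covariate 10 fell, among them the calcium release channel *Ryr1* (-0.73), the calcium store protein *Casq1* (-0.79), *Hacd1* (-0.81), whose mutation causes a centronuclear myopathy in dogs, and the phosphatase *Mtmr14* (-0.50). The list's median log2 difference was -0.51 beside 0.00 for all genes. Of 8 muscle fiber markers, 4 fell and none rose; 5 had lower and 3 higher means, with values from -1.32 to 1.37 and a median of -0.50, and *Ttn* belongs to both lists. *Speg*, at -0.82, lay among these genes and away from *Bin1* and *Dnm2*, at 0.21 each.

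**Figure D4:**
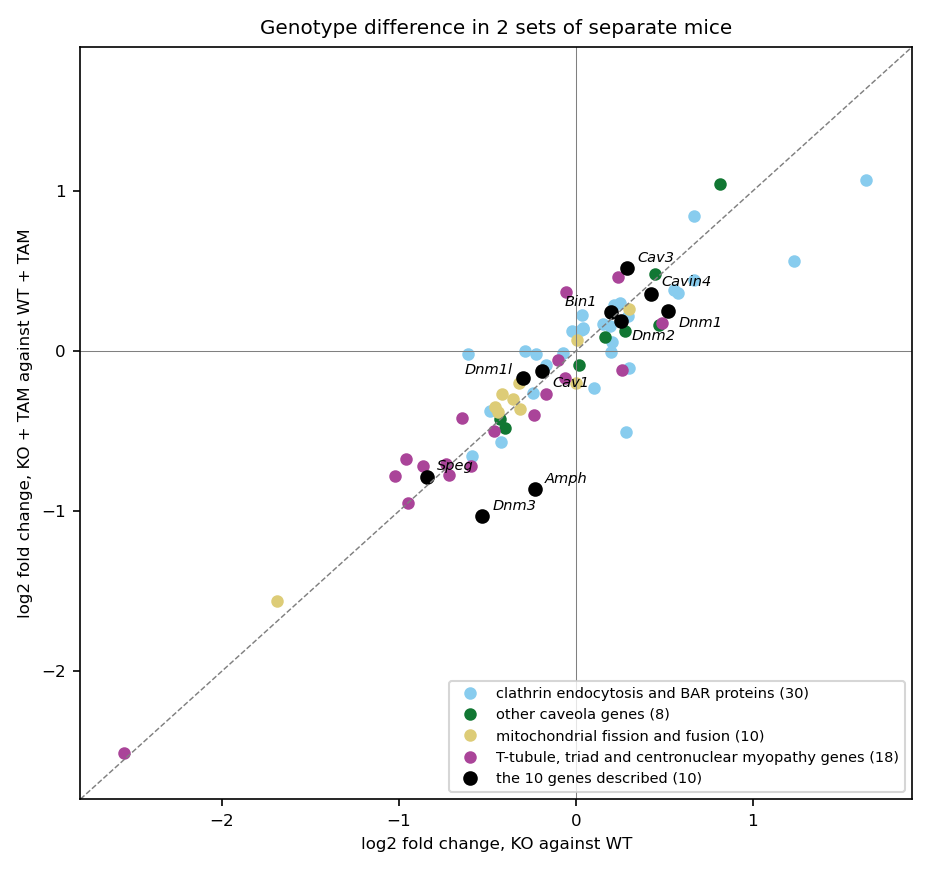
Log2 difference between mutant and WT without tamoxifen (x axis) and on tamoxifen (y axis) for the 10 genes (black, labelled) and the genes of 4 lists; each point is 1 gene tested in both sets, and the dashed line marks equal values. *Speg* lies among the triad genes at the lower left, and *Dnm2*, *Bin1*, *Dnm1*, *Cav3* and *Cavin4* lie above 0 on both axes.

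Of the 8 other caveola genes, *Ehd4*, an ATPase of the EHD family, rose without tamoxifen (log2 difference 0.81, edgeR adjusted p = 0.00553) and on it (1.04, edgeR adjusted p = 6.98e-04). With treatment as a covariate *Cavin3* also rose (0.46, edgeR adjusted p = 0.00351), while *Cavin1* (0.11), *Cavin2* (-0.46), *Cav2* (-0.44) and *Ehd2* (-0.05) did not pass. The median of the list was 0.14. Among all genes, 1.91% rose without tamoxifen, 3.42% on tamoxifen and 9.44% with treatment as a covariate. With tamoxifen all 8 had lower means in WT (median -0.24) and none passed, as for *Cav1*.

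Of the 32 genes of clathrin endocytosis and the wider BAR family, 31 were tested without tamoxifen and 31 on it. Without tamoxifen none passed, beside 3.6% of all genes. On tamoxifen *Itsn1*, a scaffold that recruits dynamin, fell (log2 difference -0.57, edgeR adjusted p = 0.00626), beside 6.72% of all genes passing. With treatment as a covariate 4 rose and 2 fell of 32, beside 20.2% of all genes passing in either direction, so the share was no higher than among all genes. The genes that rose were *Fnbp1* (0.45), *Bin3* (0.76), *Ap2s1* (0.53) and *Synj1* (0.44), and *Itsn1* (-0.52) and *Dnmbp* (-0.64), which binds dynamin, fell. The median was 0.08. Of the 10 genes of mitochondrial fission and fusion, *Gdap1* fell without tamoxifen (-1.69, edgeR adjusted p = 0.00670). On tamoxifen none of these 10 passed (lowest edgeR adjusted p = 0.0138). Over all 14 libraries 6 fell and none rose, namely *Gdap1*, *Oma1*, *Mfn1*, *Mfn2*, *Opa1* and the *Dnm1l* receptor *Mff*, with values from -1.63 to -0.33, beside 10.7% of all genes that fell. *Dnm1l* itself, at -0.24, did not pass.

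**Figure D5:**
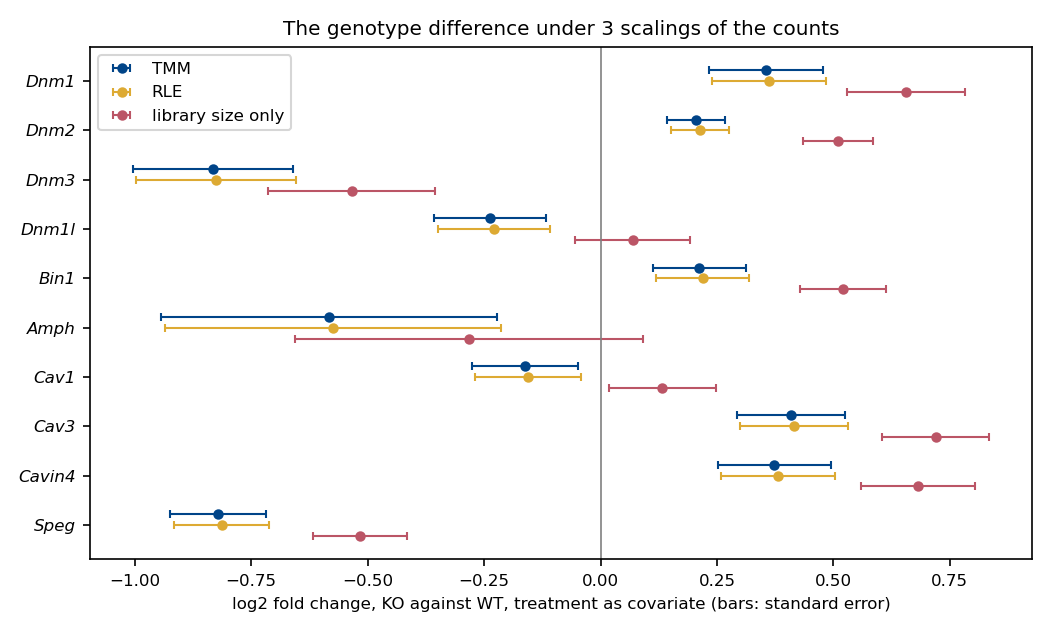
Log2 difference between mutant and WT with treatment as a covariate, with standard errors, under TMM, DESeq2-type (RLE) and library-size scaling of the same counts. Library size alone moves all 10 genes to the right by a like amount and takes *Dnm1l* and *Cav1* across 0, while *Speg* and *Dnm3* stay below 0 and *Dnm1*, *Dnm2*, *Bin1*, *Cav3* and *Cavin4* above it.

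Across the 14 libraries, the genes whose log2 CPM followed *Speg* most closely were *Txlnb* (Pearson r = 0.986), *Tbc1d16* (0.986) and *Prkar2a* (0.985). With group means removed the values were 0.956, 0.926 and 0.921. For *Dnm2* they were *Tead4* (0.927), *Tulp3* (0.918) and *Macf1* (0.917), which fell to 0.647, 0.587 and 0.607 within groups. For *Dnm3* they were *Mxi1* (0.945), *Cdip1* (0.933) and *Rnf126* (0.933), with 0.678, 0.673 and 0.694 within groups. Among the 10 genes themselves, *Speg* and *Dnm1l* gave 0.726 and 0.8115 within groups, while *Dnm3* and *Speg*, both lower in mutants, gave 0.704 and only 0.0820 within groups. These coefficients describe 14 libraries that share 4 group means, the 3 genes were picked for them, and they carry no test.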

How the data were processed

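RNA of 16 quadriceps muscles was made into TruSeq libraries by the authors, aligned to GRCm38 in 2 steps with STAR and counted per gene with HTSeq. The deposited values are raw counts for 41388 genes and RPKM, which the authors derived from counts and gene lengths. The submitters' processing notes name STAR 2.5.0c, Cufflinks 2.2.1 and bcl2fastq 2.17; for the annotation version, counting mode and strand setting, the sources used here give nothing.

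The counts were tested with edgeR 4.0.16 in R 4.3.3 (quasi-likelihood test, TMM scaling, at least 10 counts by filterByExpr and 15 in total, Benjamini-Hochberg adjustment, adjusted p of at most 0.01), fitted over all genes of 14 libraries. WT replicate 1 and *Mtm1* KO replicate 12 were left out as in the study, whose reason was not found in its text. Alternatives were DESeq2 1.42.0, limma 3.58.1 on log2 of RPKM plus 0.1 or 1, other scalings, no filter, 1 fit of 4 groups, all 16 libraries and each library left out. Scripts were tested on simulated data whose planted differences were larger than any of the 10 genes, so recovery of smaller ones was not tested. Figures used Python 3.11.15 and matplotlib 3.10.9.

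The 10 genes, the 4 pathway lists and the 8 marker lists (muscle fiber, endothelial, fat, fibroblast, nerve and Schwann cell, smooth muscle, leukocyte, satellite and regenerating muscle) were chosen with earlier results of these data known. All 10 genes are named; of the pathway lists, genes called between genotypes are named, at most 12 per list by lowest p, except *Stac3*, whose value is not given, and 1 gene not reported here, and a few others chosen after their values were seen (*Cavin1*, *Cavin2*, *Cav2* and *Ehd2*). For *Dnm2*, *Dnm3* and *Speg* the 3 genes of highest correlation are named. Each library is a separate mouse. Libraries held 25116179 to 29847222 counts, and *Amph*, with 4 to 40 counts, has the widest intervals of the 10.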

Additional observations from a re-analysis of the deposited data

Results flagged for a closer look

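*Cav3* in WT + TAM replicate 6 stood at 71.3 normalized CPM, far below the other 3 libraries of its group, which lay between 92.5 and 96.3. It was the 1 case among 40 sets of a gene and a group examined for a library far from the others, and chance gives about 1 in 20 such sets among groups of this size.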

How the results depend on the processing

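Of 1025 recomputed values, 907 kept their direction and their side of the threshold, 52 reversed, 40 lost a call and 26 gained one or moved up as a count. Of the 10 genes, the number called without tamoxifen (1) became 0 with limma at either pseudocount and with 16 libraries, and 0 to 0 when 1 library was left out; by library size alone it was again 1, but *Cavin4* in place of *Speg*. On tamoxifen (2) it became 1 with limma at either pseudocount and by library size alone, in all 3 cases *Cav3*, with *Speg* and *Dnm3* both lost; it was 3 at a threshold of 0.05, and 0 to 1 with 1 library left out. Between *Mtm1* KO + TAM and WT (1) it became 2 at a threshold of 0.05, with DESeq2 and by library size alone (*Cav3* and *Dnm1*, without *Speg*), 1 with limma at a pseudocount of 0.1 (*Dnm1*), 0 with limma at a pseudocount of 1 and with 16 libraries, and 0 to 1 with 1 library left out. With treatment as a covariate (2) it became 6 at a threshold of 0.05, 4 with DESeq2, 3 without a filter, 6 by library size alone and with limma at either pseudocount (*Speg*, *Bin1*, *Cav3*, *Cavin4*, *Dnm1* and *Dnm2*, without *Dnm3*), and 2 to 3 with 1 library left out. Among all genes, 17% passed at 0.05 on tamoxifen and 20% between *Mtm1* KO + TAM and WT. That last comparison called 2252 of 16022 with DESeq2 and 1871 of 14942 by library size alone. Library size alone called 1163 of 14740 without tamoxifen and 1874 of 14563 on it. With treatment as a covariate, 33.8% passed at 0.05, 3976 of 17990 with DESeq2 and 3068 of 24117 without a filter. Library size alone called 5212 of 15556 there, and limma 5174 and 5145. The main calls there split into 1468 higher and 1669 lower, or 4639 and 573 by library size alone. Log2 differences of mutant against WT that turned sign, in the order of limma at 0.1, limma at 1 and library size alone, were 0.14, 0.0202 and 0.0532 for *Amph* and 0.12, 0.11 and 0.11 for *Cav1* without tamoxifen, 0.14, 0.14 and 0.15 for *Cav1* and 0.11, 0.10 and 0.11 for *Dnm1l* on tamoxifen, and 0.13, 0.13 and 0.13 for *Cav1* and 0.0554, 0.0531 and 0.0693 for *Dnm1l* with treatment as a covariate; *Dnm1l* without tamoxifen gave 0.0157 by library size alone. For tamoxifen, *Bin1* in *Mtm1* KO gave 0.0027 with DESeq2, 0.0020 with RLE and 0.0038 in 1 fit of 4 groups, *Dnm1l* in WT gave 0.13 with 16 libraries, *Cav3* with genotype as a covariate gave -0.11 with 16 libraries, and *Dnm1l* gave -0.0245 and -0.0229 with limma at 0.1 and 1 and -0.0219 by library size alone. With 1 library left out, signs turned for *Amph* without tamoxifen (-0.61 to 0.14), for *Dnm3* between *Mtm1* KO + TAM and WT (-0.37 to 0.13), for the interaction of *Bin1*, *Cav1*, *Cavin4*, *Dnm1l* and *Speg*, and, for tamoxifen, for *Bin1* in mutants (-0.12 to 0.12), in WT (-0.13 to 0.0860) and over both genotypes (-0.0831 to 0.0426), *Cav3* in WT (-0.14 to 0.0673), *Dnm1* in mutants (-0.0166 to 0.22), *Dnm1l* in mutants (-0.10 to 0.26), in WT (-0.17 to 0.0110) and over both (-0.0801 to 0.0738), and *Speg* in WT (-0.0578 to 0.19); none of these was called. Beyond the scaling itself and the smaller number of libraries, the cause was not tested. The study describes its sequenced samples as coming from littermates, but the sample labels used here name no litter. Replicate numbers are not shared between groups either. No paired analysis was therefore possible, and litter was not part of any fit.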
